A study of Mus musculus with 12 samples.

Results

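Transcripts of 10 genes of the Notch pathway were followed in kidneys of a mouse model of polycystic kidney disease. The 10 genes were taken by name from a table of 35275 genes, using the row with the most reads for each name. They were the receptors *Notch1*, *Notch2*, *Notch3* and *Notch4*, the ligands *Jag1*, *Jag2* and *Dll4*, and the target genes *Hes1*, *Hey1* and *Heyl*. All 10 had enough reads to be tested in each of the 3 comparisons made.

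Notch receptors sit in the plasma membrane and are activated by ligands of the Jagged and Delta-like families on a neighboring cell. Binding leads to cleavage of the receptor, last by γ-secretase, and the freed intracellular domain enters the nucleus, where it joins the DNA-binding protein RBPJ and a Mastermind coactivator to turn on genes of the Hes and Hey families. In the kidney the pathway takes part in the patterning of nephrons, and in the adult organ Notch4, Dll4 and Jag1 are known in blood vessels, Notch3 and Heyl in pericytes and vascular smooth muscle, and Hes1 in many cell types.

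Poly(A) RNA from whole kidneys of 12 C57BL/6J mice at 6 months of age was sequenced, with 4 mice in each group and 2 females and 2 males per group. WT mice carried neither alteration. RC/RC mice were homozygous for the RC missense knock-in allele of *Pkd1*, a hypomorphic allele that leads to slowly progressive cysts. RC/RC:*Casp1*KO mice, here called KO mice, carried the same *Pkd1* alleles and a deletion in *Casp1*, the gene of the inflammasome protease Caspase-1, in all cells of the body. The study asked whether Caspase-1 promotes cystic disease, and used RNA sequencing to look for pathways that its loss alters. It reported less cystic disease in KO females and no such effect in males. Here the females and males of a group are pooled. Reads on genes numbered from 20556335 to 22656309 in WT, from 18019819 to 24284831 in RC/RC and from 18738755 to 24869454 in KO mice. The columns name the group of a mouse and not its sex, so no result is given by sex, and individual mice are named here by the number of their reads.

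*Casp1*, the targeted gene, was lowest in KO mice. It had 1.28, 1.31, 1.41 and 2.05 CPM (reads scaled to the TMM-normalized library size) in the WT mice, 2.62, 3.33, 3.87 and 4.24 in RC/RC mice, and 0.382, 0.665, 0.667 and 1.06 in KO mice. The 3 sets of values did not overlap, and 10 to 23 reads remained in the KO libraries. The log2 fold change of KO against RC/RC was -2.35 (SE 0.32), with an adjusted p of 0.00514 by edgeR's quasi-likelihood test. Against WT it was -1.12 (SE 0.35, adjusted p = 0.128) in KO kidneys, which did not pass, and 1.21 (SE 0.25, adjusted p = 0.0142) in RC/RC kidneys. *Pkd1*, whose RC allele still makes a transcript, did not pass the test in any comparison, and its values ranged from 40.2 to 87.2 CPM over the 12 mice.

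Among the 10 genes, 3 passed the test in at least 1 comparison. *Heyl* was higher in RC/RC than in WT kidneys and lower again in KO kidneys. *Hes1* was lower in KO than in RC/RC kidneys. *Notch2* was higher in KO kidneys than in both other groups. Between KO and RC/RC, the *Heyl* and *Hes1* calls were lost in most fits that left out a mouse. The *Notch2* calls were lost in several such fits, and each tally is given further on. The values of each mouse are in the plot of Notch pathway transcripts by mouse.

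**Figure D1:**
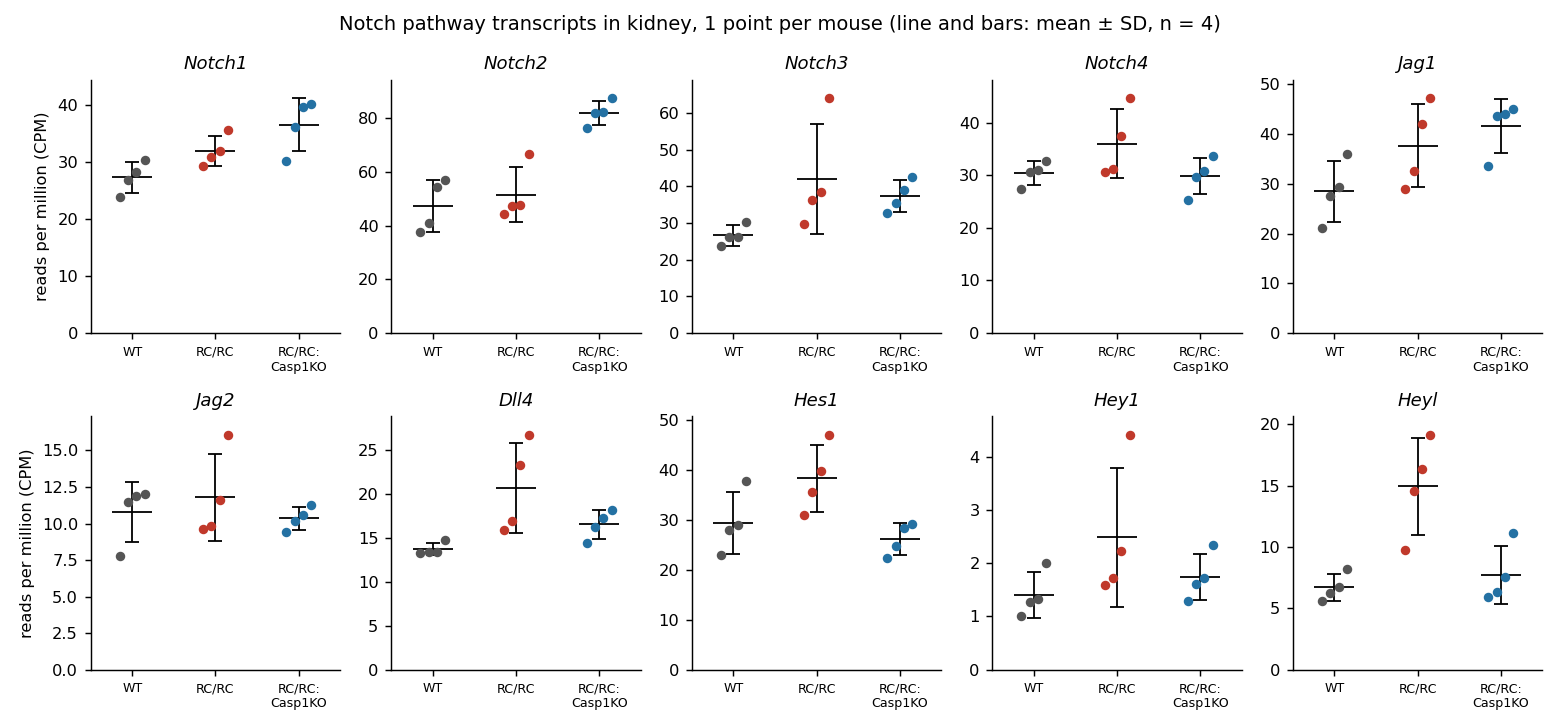
Level in CPM (vertical axis, linear from 0) of the 10 genes in each mouse, by group (horizontal axis), with 1 point per mouse and the mean ± SD of 4 mice as a line and bars. The 4 KO mice sit between 76.3 and 87.4 CPM for Notch2, above all other mice, and the 4 RC/RC mice sit above all WT mice for Heyl and Dll4.

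Promoters are shown for *Notch2*, the receptor that differed, and for *Lfng*, a gene of the pathway described further on that differed in both comparisons with RC/RC. *Lfng* encodes a fringe glycosyltransferase that modifies the extracellular domain of Notch receptors. Each sequence is the 250 bases before the start of transcription in RefSeq on GRCm38.p6, the build of the table, from 5′ to 3′ on the strand of the gene. *Notch2* is on chr3:98013288-98013537, plus strand, and *Lfng* on chr5:140607091-140607340, plus strand. Capitals mark matches, on either strand, to GTGGGAA, bound by RBPJ, and to CACGTG and CACGCG, which proteins of the Hes and Hey families are known to bind.
Notch2: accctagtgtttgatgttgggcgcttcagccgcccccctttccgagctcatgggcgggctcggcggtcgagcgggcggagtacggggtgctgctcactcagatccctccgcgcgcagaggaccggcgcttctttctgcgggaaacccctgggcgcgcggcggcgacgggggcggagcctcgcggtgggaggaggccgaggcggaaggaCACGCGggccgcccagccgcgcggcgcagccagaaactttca
Lfng: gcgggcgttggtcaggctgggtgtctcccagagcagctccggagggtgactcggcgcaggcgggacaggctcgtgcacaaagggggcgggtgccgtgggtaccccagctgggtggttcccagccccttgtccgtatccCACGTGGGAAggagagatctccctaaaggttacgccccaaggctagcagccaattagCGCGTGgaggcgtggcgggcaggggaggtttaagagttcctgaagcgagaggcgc

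The *Notch2* window holds 1 match to CACGCG, which begins 42 bases before the start. The *Lfng* window holds a match to CACGTG 112 bases before the start, a match to GTGGGAA that overlaps it and begins at 109 bases, and a match to CACGCG on the minus strand at 55 bases. Of 32851 promoters of the same length, 5.42% held GTGGGAA, 6.02% CACGTG and 7.62% CACGCG. Promoters of 7 of the 10 genes were matched, and *Hes1*, *Hey1* and *Heyl* were not used here. None of the 7 held GTGGGAA or CACGTG, and CACGCG was found in *Notch2*, *Jag1* and *Dll4*. Among other pathway genes called further on, promoters of *Neurl1a* and *Numbl* held none of these motifs, and those of *Psenen* held CACGCG alone. GC content was 72% in the *Notch2* window and 66% in that of *Lfng*, against a median of 52.4% over all promoters. These matches are letters in a window and no measure of binding.

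Levels were compared between genes per length, as CPM per kilobase (FPKM). *Hes1* was the most abundant of the 10 transcripts in every group, with 20.1 ± 4.21 FPKM in WT, 26.1 ± 4.62 in RC/RC and 17.8 ± 2.18 in KO kidneys (mean ± SD, n = 4). Its lowest mouse stood above the highest mouse of the next gene in each group. *Hey1* was the least abundant, with 0.637 ± 0.195, 1.13 ± 0.594 and 0.789 ± 0.199 FPKM, and it too was set apart from its neighbor in every group. In WT kidneys the 7 genes from *Jag1* (5.09 ± 1.09 FPKM) down to *Jag2* (2.66 ± 0.499 FPKM) overlapped each with the next in order, and *Heyl* stood below them at 1.48 ± 0.245 FPKM. In RC/RC kidneys *Heyl*, at 3.29 ± 0.87 FPKM, ranged among *Notch1* and *Jag2*. In KO kidneys *Notch2* moved from rank 4 in WT and 6 in RC/RC to rank 2, at 7.80 ± 0.431 FPKM, and its values overlapped with those of *Jag1* (7.42 ± 0.962 FPKM).

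*Notch2* encodes a receptor that is known for its part in the formation of proximal nephron segments, and lies on chr3:98013538-98150367. Its level was 37.55, 40.9, 54.3 and 56.9 CPM in WT mice. In RC/RC mice it was 44.5, 47.3, 47.8 and 66.7 CPM. In KO mice it was 76.3, 81.8, 82.3 and 87.4 CPM. The WT and RC/RC mice overlapped, and every KO mouse was above the highest of them. The log2 fold change was 0.66 (SE 0.13, adjusted p = 0.0176) against RC/RC, 0.79 (SE 0.14, adjusted p = 0.0275) against WT, and 0.12 (SE 0.18, adjusted p = 0.69) for RC/RC against WT.

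The *Notch2* transcript is 10506 bases long in the table, the longest of the 10, and long genes as a whole were higher in KO kidneys. The median log2 fold change of KO against RC/RC rose from -0.32 over 1260 genes under 1 kb to 0.25 over 1765 genes of 6 kb and more, as in the plot of median differences by gene length. With the length trend of each library removed, *Notch2* differed by 0.36 (adjusted p = 0.0573) from RC/RC and by 0.56 (adjusted p = 0.0196) from WT. The first difference thus did not pass the test under that setting, and the second did.

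**Figure D2:**
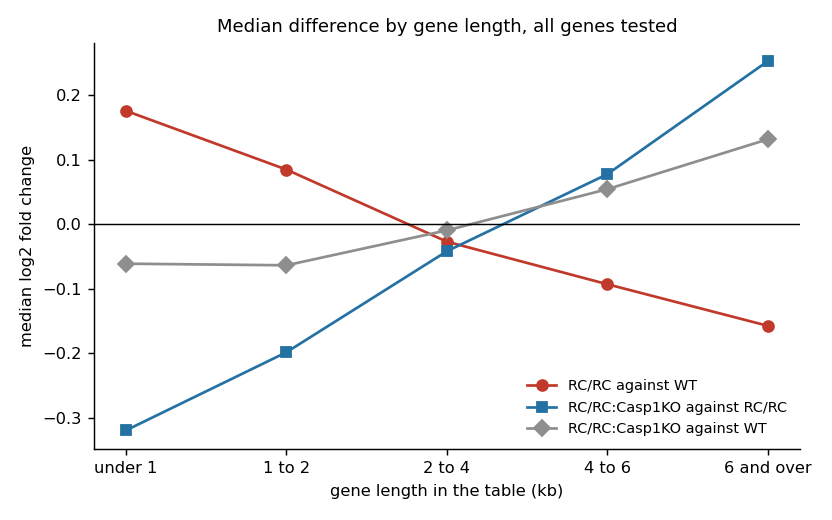
Median log2 fold change over all genes tested (vertical axis) in 5 classes of gene length in kb (horizontal axis), with 1 line per comparison. Between KO and RC/RC the medians run from -0.32 for the shortest to 0.25 for the longest genes, and between RC/RC and WT from 0.18 to -0.16.

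*Notch3*, the receptor of pericytes and vascular smooth muscle, lies on chr17:32120820-32166880. It had 23.8, 26.2, 26.2 and 30.4 CPM in WT mice and 29.9, 36.2, 38.4 and 64.0 CPM in RC/RC mice. The 4 KO mice had 32.7, 35.5, 39.1 and 42.6 CPM, all above the WT mice, and the RC/RC and WT mice overlapped at 1 value. The log2 fold change was 0.66 (SE 0.22, adjusted p = 0.0788) for RC/RC against WT, 0.50 (SE 0.11, adjusted p = 0.0599) for KO against WT and -0.18 (SE 0.21, adjusted p = 0.603) for KO against RC/RC. None of these passed the threshold of 0.05.

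*Notch1*, on chr2:26457903-26516663, ranged from 23.9 to 30.4 CPM in WT, from 29.3 to 35.6 in RC/RC and from 30.2 to 40.3 in KO mice. Neighboring groups overlapped, and the largest difference, 0.42 (SE 0.12) on the log2 scale for KO against WT, had an adjusted p of 0.101. *Notch4*, the receptor known from endothelial cells, on chr17:34564268-34588503, ranged from 27.5 to 32.8 CPM in WT, from 30.7 to 44.6 in RC/RC and from 25.4 to 33.7 in KO mice. All 3 ranges of *Notch4* overlapped, with log2 fold changes of 0.24, -0.28 and -0.02 in the 3 comparisons and adjusted p-values of 0.218 to 0.919.

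The summed level of the 4 receptors was 15.3 ± 1.14 FPKM in WT, 19.0 ± 2.93 in RC/RC and 20.8 ± 1.72 in KO kidneys. The make-up of that sum differed in KO mice, as the plot of receptor shares shows. *Notch2* held 29.3% ± 4.09 of it in WT, 26.2% ± 5.74 in RC/RC and 37.5% ± 2.32 in KO kidneys. The lowest KO mouse had 35.5%, above the highest WT mouse with 33.4% and the highest RC/RC mouse with 33.3%. *Notch4* held 30.3% ± 3.62 in WT, 28.9% ± 3.33 in RC/RC and 21.7% ± 1.05 in KO kidneys, and no KO mouse reached the lowest value of the other groups, 24.5%. The shares of a mouse make up a whole, so a higher *Notch2* share lowers the others. In CPM the *Notch4* ranges overlapped. By edgeR's test its log2 fold change in KO kidneys was -0.02 (adjusted p = 0.919) against WT and -0.28 (adjusted p = 0.218) against RC/RC. *Notch1* held 17.9% to 18.8% on average in each group. These shares are a description and were not tested. They were also not computed with the length trend removed. From longest to shortest receptor, log2 fold changes of KO against RC/RC were 0.66 for *Notch2* (10506 bases) and 0.18 for *Notch1* (9488 bases). They were -0.18 for *Notch3* (8044 bases) and -0.28 for *Notch4* (6591 bases). The part of the length trend in the shares was not tested.

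**Figure D3:**
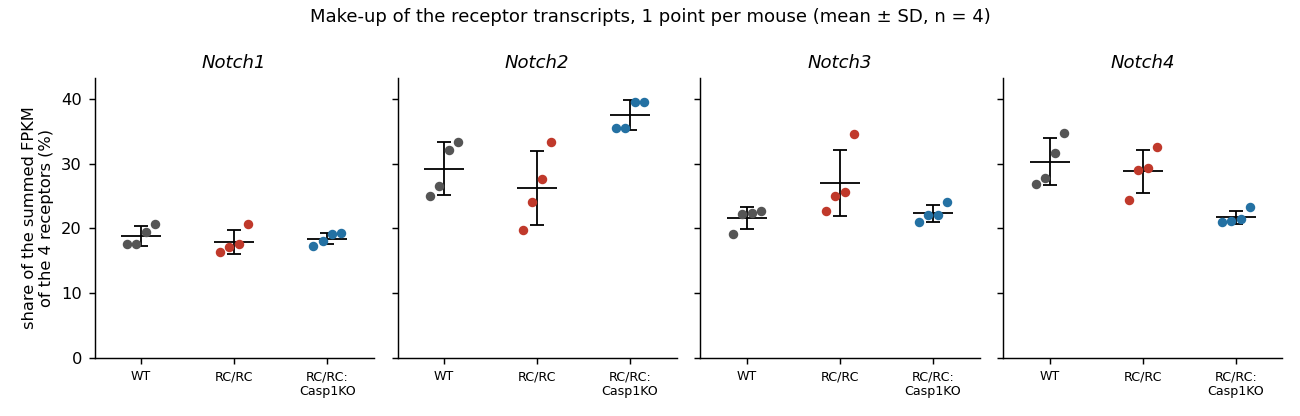
Share of the summed FPKM of the 4 Notch receptors held by each receptor in percent (vertical axis, from 0), by group (horizontal axis), with 1 point per mouse and the mean ± SD of 4 mice. In KO mice the Notch2 share lies between 35.5% and 39.6%, above all other mice, and the Notch4 share lies between 21.0% and 23.3%, below all other mice. The shares of a mouse make up a whole, so a higher Notch2 share lowers the others.

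*Dll4* encodes a Delta-like ligand of endothelial cells and lies on chr2:119325784-119335962. Its level was 13.3, 13.4, 13.5 and 14.8 CPM in WT mice, and 15.9, 17.0, 23.3 and 26.7 CPM in RC/RC mice. KO mice had 14.5, 16.2, 17.3 and 18.3 CPM. All RC/RC mice were above all WT mice, by amounts that varied widely among the RC/RC mice, and the KO mice overlapped with both. The log2 fold change of RC/RC against WT was 0.59 (SE 0.17), and its adjusted p of 0.0525 was just over the threshold. Against RC/RC, KO kidneys differed by -0.33 (SE 0.18, adjusted p = 0.229). An antisense transcript at the same place, *Gm14207*, had 427 reads over the 12 mice against 4321 for *Dll4*, and reads of the pair may be mixed where counting took no account of strand.

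*Jag1*, a ligand known in vessels and in injured tubules, on chr2:137081456-137116644, ranged from 21.1 to 36.0 CPM in WT, from 28.9 to 47.2 in RC/RC and from 33.6 to 45.2 in KO mice. Its log2 fold change was 0.40 (SE 0.20, adjusted p = 0.209) for RC/RC against WT and 0.55 (SE 0.16, adjusted p = 0.121) for KO against WT. *Jag2*, on chr12:112908590-112929495, ranged from 7.77 to 12.04 CPM in WT, from 9.61 to 16.0 in RC/RC and from 9.39 to 11.3 in KO mice. The groups overlapped for both ligands, and the log2 fold changes of *Jag2* lay between -0.19 and 0.13.

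*Heyl* encodes a basic helix-loop-helix repressor that is a target of Notch3 in vascular smooth muscle, and lies on chr4:123233556-123249875. It had 5.63, 6.27, 6.76 and 8.24 CPM in WT mice. RC/RC mice had 9.73, 14.55, 16.4 and 19.1 CPM. KO mice had 5.92, 6.32, 7.58 and 11.1 CPM. All RC/RC mice were above all WT mice, and 3 of the 4 KO mice were within the WT range while the fourth was above the lowest RC/RC mouse. *Heyl* rose 2.22-fold in RC/RC against WT kidneys, a log2 fold change of 1.15 (SE 0.22, adjusted p = 0.00901). It fell by 0.96 (SE 0.25, adjusted p = 0.0399) on the log2 scale in KO against RC/RC kidneys. That call was lost with library size alone and in most fits that left out a mouse. The difference between KO and WT was 0.21 (SE 0.23, adjusted p = 0.61).

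*Hes1*, the most abundant target, lies on chr16:30064384-30067796. It had 22.9, 28.0, 29.1 and 37.8 CPM in WT mice, and 31.0, 35.6, 39.7 and 47.0 CPM in RC/RC mice. KO mice had 22.4, 24.7, 28.4 and 29.3 CPM, all below the RC/RC mice and within or just under the WT range. *Hes1* fell by 0.56 (SE 0.14, adjusted p = 0.0399) on the log2 scale in KO against RC/RC kidneys. That call was lost with library size alone and in most fits that left out a mouse. The log2 fold change of RC/RC against WT was 0.38 (SE 0.17, adjusted p = 0.181), with overlapping groups. The *Hes1* transcript is short, at 1468 bases, and with the length trend removed the difference between KO and RC/RC was -0.41 (adjusted p = 0.0714).

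*Hey1*, on chr3:8663362-8667039, was counted with 21 to 82 reads per mouse, the fewest of the 10 genes. Its range was 1.00 to 2.01 CPM in WT, 1.59 to 4.40 in RC/RC and 1.29 to 2.34 in KO mice, and all groups overlapped. The log2 fold changes of 0.81 (SE 0.38) for RC/RC against WT and -0.51 (SE 0.37) for KO against RC/RC had adjusted p-values of 0.194 and 0.367.

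In RC/RC against WT kidneys, all 10 genes had positive log2 fold changes, from 0.12 (*Notch2*) to 1.15 (*Heyl*), with a median of 0.39 against -0.02 over the 15243 genes tested. *Heyl* alone passed the test, so that 1 of 10 rose and 0 fell, while 9.76% of all genes tested were called higher and 3.18% lower. At an unadjusted p under 0.05 there were 3 genes, *Notch3*, *Dll4* and *Heyl*, beside 4457 of the 15243 genes tested. DESeq2 called the same 3, all higher, beside 2900 of all genes, 1857 of them higher. The groups did not overlap for 2 of the 10, *Dll4* and *Heyl*, against 19.6% of all genes in either direction. The counts of genes called and of genes without overlap were thus near those of the whole table. *Heyl* passed in each of the 8 fits that left out 1 mouse (adjusted p 0.00265 to 0.0312).

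In KO against RC/RC kidneys, the 3 targets all had negative log2 fold changes, from -0.96 (*Heyl*) to -0.51 (*Hey1*), with 2 of 3 called. The receptors were split, with *Notch2* and *Notch1* positive and *Notch3* and *Notch4* negative, and of the ligands only *Jag1* was positive, at 0.14 (SE 0.16, adjusted p = 0.589). In all, 1 of 10 genes rose and 2 fell, while 7.23% of the 15428 genes tested were called higher and 4.41% lower. The groups did not overlap for *Notch2* and *Hes1*, against 20.4% of all genes. The median log2 fold change of the 10 was -0.24 and that of all genes -0.03. The targets, at 1468 to 4537 bases, are shorter than the receptors, at 6591 to 10506 bases. With the length trend removed, *Heyl* alone of the 10 passed. Of the 8 fits that left out 1 mouse, *Notch2* passed in 4 (adjusted p 0.00516 to 0.0575), *Hes1* in 2 (0.029 to 0.11) and *Heyl* in 2 (0.0209 to 0.11), and the direction was kept in all. None of the 10 genes passed in the 4 fits without the RC/RC mouse with 18019819 or 19292181 reads or the KO mouse with 24869454 or 19371954 reads.

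In KO against WT kidneys, *Notch2* alone passed, so that 1 of 10 rose and 0 fell, while 1.13% of the 15346 genes tested were called higher and 0.893% lower. The groups did not overlap for *Notch2* and *Notch3*, against 13.9% of all genes. The median log2 fold change was 0.29 over the 10 genes and 0.01 over all. At an unadjusted p under 0.05 there were 5 genes, beside 3343 of the 15346 tested. DESeq2 called *Notch1*, *Notch2*, *Notch3* and *Jag1*, all higher, beside 1366 of all genes, 736 of them higher. *Notch2* passed in 3 of the 8 fits that left out 1 mouse (adjusted p 0.0371 to 0.0818). The comparisons share mice, so that their fold changes are not independent of each other, and they are set side by side in the plot of differences between groups.

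**Figure D4:**
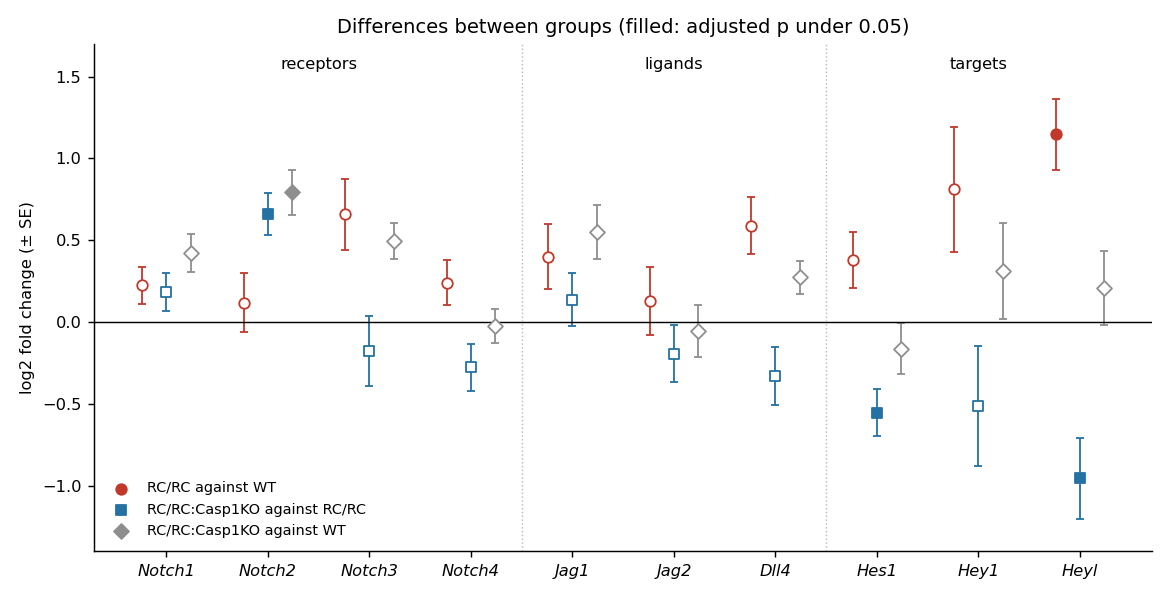
Log2 fold change ± SE by edgeR's quasi-likelihood test (vertical axis) for the 10 genes (horizontal axis) in the 3 comparisons, with filled symbols for an adjusted p under 0.05. The filled symbols are Heyl at 1.15 for RC/RC against WT, Notch2 at 0.66, Hes1 at -0.56 and Heyl at -0.96 for KO against RC/RC, and Notch2 at 0.79 for KO against WT.

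A further 59 genes of the pathway were followed as lists. In RC/RC against WT kidneys, 4 of the 54 tested rose and 1 fell, shares no larger than the 9.76% and 3.18% of all genes, and the median log2 fold change was 0.02. *Lfng* and *Mfng*, 2 of the 5 genes of receptor glycosylation, both encode fringe glycosyltransferases. *Lfng* had 10.7, 11.1, 14.0 and 15.8 CPM in WT mice, 19.7, 20.6, 25.55 and 39.0 in RC/RC mice and 9.54, 14.2, 14.55 and 17.4 in KO mice. The RC/RC mice stood above both other groups without overlap. *Lfng* rose by 1.02 (SE 0.23, adjusted p = 0.0191) against WT, and fell by 0.92 (SE 0.25, adjusted p = 0.0437) on the log2 scale in KO against RC/RC kidneys. The first call was kept in 6 of the 8 fits that left out 1 mouse, all but those without the WT mice with 20556335 (adjusted p = 0.0523) and 22656309 reads (0.0609). The second was kept only without the RC/RC mouse with 24206534 or 24284831 reads (adjusted p 0.0288 to 0.102 over the 8), and was lost with library size alone (0.0808). *Mfng* rose 2.43-fold in RC/RC against WT, from 5.30 ± 1.39 to 12.9 ± 3.93 CPM (adjusted p = 0.0107), and stood at 8.59 ± 0.707 CPM in KO kidneys, a log2 fold change of -0.60 (SE 0.20, adjusted p = 0.0846) against RC/RC.

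Among 14 genes of trafficking and turnover, *Neurl1a* and *Numbl* rose in RC/RC against WT kidneys by edgeR's test. At an unadjusted p under 0.05 there were 7, beside 4457 of the 15243 genes tested. DESeq2 also called *Nrarp*, a Notch target that feeds back on the pathway, higher and *Itch*, a ubiquitin ligase, lower there, and *Mib1*, a ubiquitin ligase of Notch ligands, higher in KO against RC/RC kidneys. Over all genes, DESeq2 called 2900 in RC/RC against WT and 3207 in KO against RC/RC kidneys. *Neurl1a*, the homolog of a fly ubiquitin ligase that acts on Notch ligands, rose 2.85-fold from 1.21 ± 0.261 to 3.44 ± 0.49 CPM (adjusted p = 0.00416), on 19 to 107 reads per mouse. *Numbl*, a relative of the Notch inhibitor Numb, rose 1.84-fold (adjusted p = 0.0363), and its call was kept in 2 of the 8 fits that left out 1 mouse. *Dtx3*, of the Deltex family of ubiquitin ligases, was higher by 0.45 (SE 0.11, adjusted p = 0.034) on the log2 scale in KO than in RC/RC kidneys. That call was kept in 3 of the 8 fits that left out 1 mouse, those without the RC/RC mice with 18019819 and 24206534 reads and the KO mouse with 24869454 reads (adjusted p 0.0373 to 0.0987 over the 8), and under 5 of the 7 other settings.

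*Hdac1*, a histone deacetylase found in the repressor complexes of RBPJ and of many other factors, was the only 1 of 11 corepressor genes called by edgeR's test, while DESeq2 also called *Spen* lower in RC/RC against WT and *Tle2* higher in KO against RC/RC kidneys. It had 63.7 ± 2.41 CPM in WT, 40.01 ± 3.91 in RC/RC and 35.3 ± 3.53 in KO kidneys. It fell by 0.67 (SE 0.10, adjusted p = 0.00277) in RC/RC and by 0.85 (SE 0.09, adjusted p = 0.00226) on the log2 scale in KO kidneys, both against WT, without overlap. Every fit that left out 1 mouse kept both calls.

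None of the 10 genes of receptor processing, which encode Furin, the ADAM proteases and γ-secretase, passed in RC/RC against WT kidneys by edgeR's test, 0 had an unadjusted p under 0.05, and DESeq2 also called 0. *Psenen*, a small subunit of γ-secretase, fell by 0.61 (SE 0.17, adjusted p = 0.0489) in KO against RC/RC kidneys, with overlapping groups. That call was kept in 1 of the 8 fits that left out 1 mouse, the one without the RC/RC mouse with 24206534 reads (adjusted p 0.0172 to 0.129 over the 8), and under 3 of the 7 other settings. *Psenen* belongs to the genes under 1 kb, whose median log2 fold change in this comparison was -0.32. Of the 9 genes of the nuclear complex, *Rbpj* and the Mastermind genes among them, 0 passed in any comparison, with 1 to 2 at an unadjusted p under 0.05, and DESeq2 called *Ep300* and *Crebbp*, both coactivators, higher in KO than in RC/RC kidneys. The other target genes, of which 3 of 6 were tested, and the other ligands, of which 1 or 2 of 4 were tested, had no gene called by edgeR's test or by DESeq2, with at most 1 in each list at an unadjusted p under 0.05. In all, 1 of 53 further genes rose and 2 fell in KO against RC/RC kidneys, beside 7.23% and 4.41% of all genes. Against WT, 0 of 54 rose and 1 fell in KO kidneys, beside 1.13% and 0.893%. There 11 had an unadjusted p under 0.05, beside 3343 of the 15346 genes tested. DESeq2 called *Mfng* higher and *Hdac1* and *Itch* lower, beside 1366 of all genes.

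The libraries come from whole kidneys, where fewer cells of a type and less RNA per cell cannot be told apart. The summed level of 9 markers of pericytes and smooth muscle was 104 ± 10.1 FPKM in WT, 222 ± 104 in RC/RC and 92.6 ± 7.88 in KO kidneys. In RC/RC against WT kidneys 4 of these rose (*Pdgfrb*, *Mcam*, *Acta2* and *Tagln*), while *Myh11* and *Cspg4* stood at 0.17 and 0.088 on the log2 scale. In KO against RC/RC kidneys 5 fell and *Cspg4* rose, by 0.48 (SE 0.11, adjusted p = 0.0281), and DESeq2 called 7 lower and *Cspg4* higher. These 6 calls became 3 with library size alone, 2 without the RC/RC mouse with 19292181 reads, and 2, 1 and 3 without the KO mice with 24869454, 19371954 and 18738755 reads. *Tagln* was the most abundant, at 28.6, 78.4 and 23.8 FPKM on average in WT, RC/RC and KO kidneys. The part of these cells in the differences of *Heyl* was not tested.

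The 11 endothelial markers summed to 174 ± 18.7 FPKM in WT, 222 ± 47.1 in RC/RC and 174 ± 14.9 in KO kidneys, and 0 of them passed in any comparison by edgeR's test. At an unadjusted p under 0.05 there were 5, 6 and 1 in RC/RC against WT, KO against RC/RC and KO against WT. Over all genes these counts were 4457 of 15243, 4889 of 15428 and 3343 of 15346, and DESeq2 called 2900, 3207 and 1366. Among the endothelial markers, DESeq2 called 3 higher in RC/RC against WT (*Tie1*, *Cdh5* and *Erg*), 3 lower in KO against RC/RC (*Cdh5*, *Eng* and *Pecam1*) and *Egfl7* higher in KO against WT. *Eng* was the most abundant of them, at 30.4, 42.5 and 27.2 FPKM. Their median log2 fold change of 0.41 in RC/RC against WT stood beside 0.59 for *Dll4* and 0.24 for *Notch4*, and their part in these values was not tested. No endothelial or pericyte marker was at 0 reads in any mouse.

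Markers of other cell types differed as well. The 6 fibroblast markers rose together in RC/RC against WT kidneys, from a sum of 49.4 ± 6.23 to 265 ± 99.2 FPKM, and 5 of them fell in KO against RC/RC kidneys, to 92.4 ± 33.2 FPKM. These 5 calls became 1 with library size alone, 1 and 2 without the RC/RC mice with 18019819 and 19292181 reads, and 1, 2 and 1 without the KO mice with 24869454, 19371954 and 18738755 reads, while DESeq2 called all 6 lower. Macrophage markers summed to 79.4 ± 13.8, 285 ± 42.1 and 144 ± 72.6 FPKM in WT, RC/RC and KO kidneys. Of the 6 tested, 5 rose in RC/RC against WT kidneys by edgeR's test and 6 by DESeq2. In KO against RC/RC kidneys 2 fell by edgeR's test, *C1qa* and *C1qb*, both with overlapping groups, and 3 by DESeq2. Of 8 markers of injured tubules, 7 rose in RC/RC against WT kidneys, with sums of 82.6 ± 16.0, 248 ± 39.3 and 129 ± 41.8 FPKM in WT, RC/RC and KO kidneys. *Lcn2* and *Havcr1*, known markers of tubular damage, rose 46.4-fold and 29.8-fold. In KO against RC/RC kidneys 2 of the 8 fell by edgeR's test and 4 by DESeq2, and the edgeR count was 6 without the KO mouse with 20335245 reads and 0 without any 1 of 5 other mice, the RC/RC mice with 18019819 and 19292181 reads and the KO mice with 24869454, 19371954 and 18738755 reads. Of 8 lymphocyte markers 7 rose in RC/RC against WT, from a sum of 3.31 ± 0.958 to 11.2 ± 3.28 FPKM, and the sum was 6.93 ± 3.204 FPKM in KO kidneys. The 7 became 4, 2 and 4 without the WT mice with 21761432, 22616732 and 22656309 reads, and 2 without the RC/RC mouse with 18019819 reads. The part of fibroblasts, macrophages, lymphocytes and injured tubules in the differences of *Heyl*, *Hes1* and *Jag1* was not tested either.

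Of 6 markers of the loop of Henle and distal tubule 3 fell in RC/RC against WT kidneys, with sums of 2331 ± 487, 1452 ± 339 and 1838 ± 492 FPKM in WT, RC/RC and KO kidneys. By edgeR's test *Slc12a3* stood at 1.44 (SE 0.39, adjusted p = 0.0454) on the log2 scale in KO against RC/RC kidneys, with overlapping groups. *Calb1* stood at -1.73 (SE 0.35, adjusted p = 0.0449) in KO against WT kidneys, where DESeq2 called *Calb1* and *Pvalb* lower. In RC/RC against WT kidneys 0 of 6 collecting duct markers passed by edgeR's test, and DESeq2 called 1 higher and 1 lower. At an unadjusted p under 0.05 there were 4 of these markers, beside 4457 of the 15243 genes tested. Of 5 podocyte markers 1 fell by edgeR's test and 2 by DESeq2. Markers of the proximal tubule, in which *Slc34a1* was the most abundant, stood at 2920 ± 421, 1874 ± 673 and 2717 ± 427 FPKM. Of 7 such markers 2 passed in KO against RC/RC kidneys by edgeR's test and 4 by DESeq2, all higher, with 4 also by edgeR's test without the RC/RC mouse with 24284831 reads, and the median log2 fold change of the 7 was 0.94. *Lrp2* and *Cubn*, the scavenger receptors of that segment, rose by 1.52 (SE 0.28, adjusted p = 0.0144) and 1.34 (SE 0.25, adjusted p = 0.0146) on the log2 scale, beside *Notch2* at 0.66, while the water channel gene *Aqp1* stood at 0.0043 (adjusted p = 0.99). The *Lrp2* and *Cubn* transcripts are long, at 15460 and 11373 bases, in the length class whose median was higher in KO kidneys. The other 2 that DESeq2 called, the sodium cotransporter genes *Slc5a2* and *Slc5a12*, are shorter, at 2277 and 3529 bases, and stood at 0.94 (SE 0.28, adjusted p = 0.0561) and 1.10 (SE 0.33, adjusted p = 0.0568) by edgeR's test, without overlap between the groups. In RC/RC against WT kidneys 2 of the 7 fell by edgeR's test and 4 by DESeq2, with a median of -0.93, where *Notch2* stood at 0.12. Those 2 calls became 1 with library size alone, 1 and 0 without the WT mice with 20556335 and 22656309 reads, and 1 and 0 without the RC/RC mice with 18019819 and 19292181 reads. In KO against WT kidneys, where *Notch2* was called at 0.79, 0 of the 7 passed by edgeR's test or DESeq2, with 1 at an unadjusted p under 0.05 and a median of 0.10, and *Lrp2* and *Cubn* stood at 0.46 and 0.28. The part of these cells in the *Notch2* difference was not tested.

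**Figure D5:**
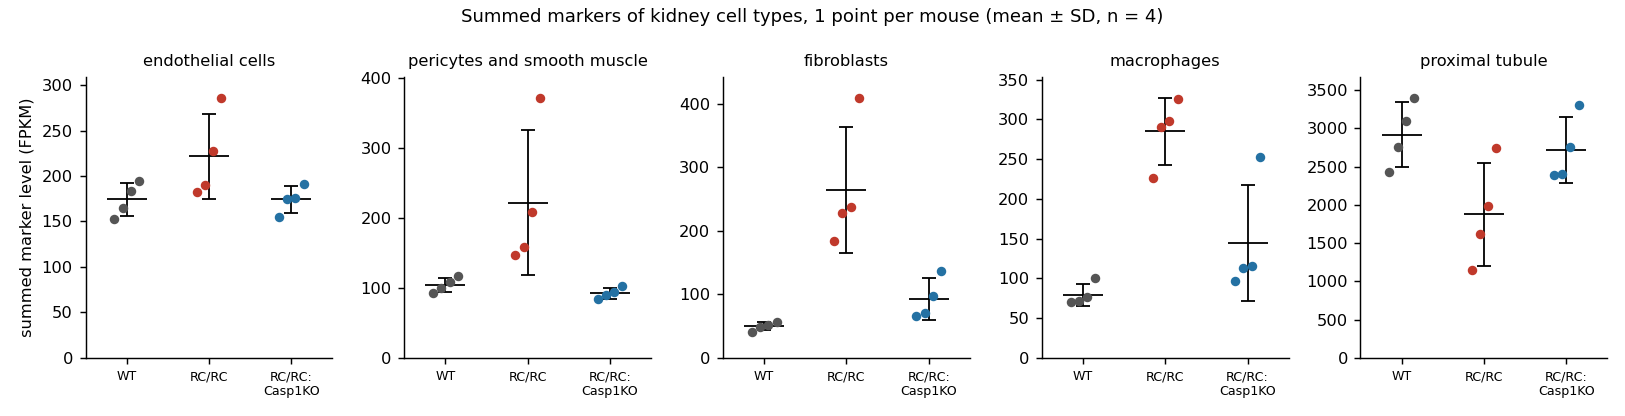
Summed FPKM of marker genes (vertical axis, from 0, a scale for each panel) for 5 kidney cell types by group (horizontal axis), with 1 point per mouse and the mean ± SD of 4 mice. In RC/RC mice the pericyte and smooth muscle sum reaches 372 FPKM and the fibroblast sum 409 FPKM in the same mouse, while the KO mice lie between 84.1 and 103 and between 65.2 and 137 FPKM.

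A single RC/RC mouse, with 18019819 reads, held the highest value of its group for 7 of the 10 genes, *Notch1*, *Notch3*, *Notch4*, *Jag2*, *Dll4*, *Hes1* and *Heyl*. The same mouse had the highest sums of its group for markers of endothelial cells (286 FPKM), pericytes and smooth muscle (372 FPKM), fibroblasts (409 FPKM), macrophages (326 FPKM), injured tubules (288 FPKM), lymphocytes (15.5 FPKM) and podocytes (123 FPKM), and the lowest for the proximal tubule (1151 FPKM) and the loop of Henle and distal tubule (1197 FPKM). Mitochondrial genes took 12.1% of its reads, against 7.78% to 11.6% in the other 11 mice. Without it the log2 fold change of *Heyl* against WT was still past the threshold, while that of *Notch3* dropped from 0.66 to 0.36. Among KO mice, the mouse with 18738755 reads held the lowest value for 6 of the 10 genes. The KO mouse with 20335245 reads held the highest value for 5, *Notch1*, *Notch3*, *Jag1*, *Jag2* and *Heyl*, and also the highest sums of its group for markers of pericytes and smooth muscle (103 FPKM), fibroblasts (137 FPKM), macrophages (253 FPKM), injured tubules (191 FPKM) and lymphocytes (11.6 FPKM), and the lowest for endothelial cells (155 FPKM), the collecting duct (391 FPKM) and podocytes (80.2 FPKM).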

How the data were processed

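Poly(A) RNA-seq libraries of 12 kidneys were sequenced and analyzed by Novogene for the authors. CASAVA 1.8, STAR and the mm10 build are named in the submitters' processing notes, and the counting tool, annotation and strand setting are not given in the sources used here. The deposited counts are raw reads per gene and mouse, without normalization. The deposited FPKM values served to check that the mice of each column prefix make up the authors' group means. The deposited log2 fold changes, p-values and adjusted p-values are the authors' own comparisons and were not used.

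Each of the 3 pairs of groups was fitted over its 8 mice with edgeR 4.0.16 (R 4.3.3): filterByExpr, TMM factors, the quasi-likelihood test and Benjamini-Hochberg adjustment over all genes tested, with calls at an adjusted p under 0.05. The SE was taken as |log2 fold change|/√F. CPM and FPKM use TMM factors over the 12 libraries. None of the 18 pairs of mice of the same group agreed within sampling noise. With 4 mice a group, p-values set each difference against the spread between mice, females and males together, without a term for sex. For each gene, edgeR's test draws its estimate of that spread in part from the other genes.

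The 10 genes, the further lists and the rule for named genes (the 10 genes, *Casp1*, *Pkd1* and any listed pathway gene called) were chosen with earlier results of these data known. Alternatives were DESeq2 1.42.0, RLE factors, library size alone, 2 other count filters, 1 fit of all 12 mice, removal of the length trend (loess, span 0.5) and leaving out each mouse. A search with blastn 2.17.0 (95% identity over 100 bases, GENCODE transcripts) found no near copies of the 10 genes in the table besides overlapping antisense genes of *Notch1*, *Notch3* and *Dll4* and *Gm9978*, which matches *Notch3* and had 9 reads. The macrophage marker *Adgre1* was not used here.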

Additional observations from a re-analysis of the deposited data

Results flagged for a closer look

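Of 90 groups of 4 mice examined, 9 held a mouse whose distance from the nearest other mouse exceeded, relative to the range of its group, Dixon's critical value, which chance alone passes in about 1 in 20 groups. Among the Notch genes, *Notch2* was high in 1 RC/RC mouse, at 66.7 CPM against 44.5 to 47.8 in the others, and without that mouse its log2 fold change of RC/RC against WT was -0.05 in place of 0.12. *Jag1* was low in 1 KO mouse, at 33.6 CPM against 43.7 to 45.2. *Jag2* was low in 1 WT mouse, at 7.77 CPM against 11.5 to 12.04, and *Dll4* was high in 1 WT mouse, at 14.8 CPM against 13.3 to 13.5, a small step within a tight group. *Numbl* was high in 1 RC/RC mouse, at 10.6 CPM against 6.00 to 6.66, and *Casp1* was high in 1 WT mouse, at 2.05 CPM against 1.28 to 1.41. Among the cell type markers, the KO mouse with 20335245 reads stood high both for macrophages (253 FPKM against 96.9 to 115) and for injured tubules (191 FPKM against 103 to 117), and 1 RC/RC mouse for podocytes (123 FPKM against 84.8 to 90.2).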

How the results depend on the processing

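Over the 10 genes and 3 comparisons, 193 of 210 values kept their direction and their side of the threshold under the 7 other settings, and 205 of 240 did so when 1 mouse was left out. Most of these values were not called in the main fit and counted as kept when they stayed uncalled. With 1 mouse left out, 21 of the values lost a call, 5 gained a call and 9 turned sign. In RC/RC against WT kidneys all 10 genes were positive and *Heyl* was called under each of those 7 settings. DESeq2 called 3 Notch genes and 8 further pathway genes there, among 2900 genes in all, against 1971 in the fit used above. The fit of all 12 mice called 3 and 8 among 2650 genes, and library size alone 2 Notch genes among 1897. In KO against RC/RC kidneys, DESeq2 called 3207 genes, 7 of them further pathway genes, library size alone 993, with 1 Notch gene and 0 further genes, and the fit without the length trend 1 Notch gene, *Heyl*. *Hes1* was also lost with library size alone (adjusted p = 0.0949) and with all genes of at least 1 read (0.05), and *Heyl* with library size alone (0.08). In KO against WT kidneys, DESeq2 called 1366 genes, with 4 Notch genes and 3 further ones, library size alone 2 Notch genes, and the filter at 10 reads in every mouse 167 genes. The causes of these shifts were not tested. Signs turned without the length trend for *Psenen* in RC/RC against WT (-0.021) and for *Notch1* (-0.11) and *Pkd1* (-0.065) in KO against RC/RC, and with library size alone for *Notch4* (0.11) and *Jag2* (0.075) in KO against WT. Library size alone moved the median of all genes to 0.14 in that comparison, from 0.01, and removing the length trend moved it to -0.09. The share of called genes that were higher was 75.4% in RC/RC against WT, 86.1% with library size alone, 64.0% with DESeq2 and 58.4% without the length trend. It was 62.1% and 82.0% (library size alone) in KO against RC/RC, and 55.9%, 79.8% (library size alone), 67.9% (12 mice) and 39.7% (length trend removed) in KO against WT.

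With 1 mouse left out, the genes called in all ranged from 1162 to 2440 in RC/RC against WT, from 438 to 2789 in KO against RC/RC and from 108 to 547 in KO against WT. The Notch genes called ranged from 1 to 3, 0 to 3 and 0 to 3, and the further genes from 3 to 8, 0 to 4 and 1 to 2. Between KO and RC/RC, adjusted p-values of *Notch2*, *Hes1* and *Heyl* were 0.0511, 0.11 and 0.11 without the RC/RC mouse with 18019819 reads, 0.0575, 0.101 and 0.0929 without that with 19292181, 0.0519, 0.0688 and 0.0959 without the KO mouse with 24869454 reads, and 0.0561, 0.0831 and 0.0992 without that with 19371954. Without the mouse with 18738755 reads, *Hes1* (0.0865) and *Heyl* (0.0849) were lost, without that with 20335245 *Hes1* (0.0808), and without the RC/RC mouse with 24206534 *Heyl* (0.0529). Between KO and WT, *Notch2* was lost without the WT mice with 21761432 (0.0582) and 22616732 reads (0.0806) and the KO mice with 24869454 (0.0724), 19371954 (0.0818) and 20335245 reads (0.0752). Log2 fold changes that turned sign ranged, for RC/RC against WT, from -0.048 to 0.22 (*Notch2*), -0.079 to 0.21 (*Jag2*) and -0.078 to 0.16 (*Pkd1*), for KO against RC/RC from -0.30 to 0.12 (*Notch3*) and -0.28 to 0.011 (*Jag2*), and for KO against WT from -0.093 to 0.047 (*Notch4*), -0.18 to 0.0015 (*Jag2*), -0.024 to 0.32 (*Heyl*) and -0.0069 to 0.26 (*Lfng*).

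No paired analysis was possible because the columns of the table carry no replicate number. Sex was not tested because the columns do not name it. Of the 10 genes *Hey1* had the fewest reads. The floor of a count of 0, 3 reads, is at most 0.151 CPM in WT, 0.161 in RC/RC and 0.166 in KO mice.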
